A study of Mus musculus with 1920 samples.

Results

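Transcripts of the phagocyte NADPH oxidase and of the small GTPase Rac2 were followed in individually sequenced microglia, the macrophages that reside in brain and spinal cord. The set has 5 genes, Cybb, Cyba, Ncf1, Ncf4 and Rac2, taken by symbol from the 48709 gene entries of the count table through their Ensembl identifiers on build GRCm38, and each was found once. Rac2 was picked because of its difference between day 3 after axotomy and the other axotomy groups, so those differences are given below as a description with no test. Which measured values, if any, led to the choice of the other 4 is not recorded, so their tests may not be independent of it.

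All mice were of the outbred CD1 strain and 16 weeks old. The untreated groups are spinal cord, corpus callosum, facial nucleus, cerebellum, hippocampus and cortex. The axotomy groups were taken 3 and 14 days after the facial nerve had been cut, and their tissue label names the nerve where the source label names the nucleus. The cuprizone groups are corpus callosum during demyelination by the copper chelator cuprizone and during the remyelination after it, with time points that the labels used here do not give. Each of the 10 groups has 4 labelled replicates, while the series text speaks of 3 to 4 mice per condition and of several regions from the same untreated mice. A replicate, called a mouse below, may thus not be independent of another, and p-values may then be too small or too large. The cuprizone groups shared 1 plate, the axotomy groups another, and the untreated regions filled the other 3, so plate and treatment cannot be told apart in any comparison of injured with untreated cells.

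The phagocyte NADPH oxidase passes electrons from NADPH across a membrane to oxygen and makes superoxide, and it is best known from neutrophils and macrophages. Its membrane core is a pair of proteins: Cybb encodes gp91phox, the catalytic subunit, and Cyba encodes p22phox, which stabilises it. Cytosolic subunits, p47phox (Ncf1) and p40phox (Ncf4) among them, move to this core on activation, together with a Rac GTPase, Rac2 in many blood cells and Rac1 in most others.

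The members lie at 4 places in the genome. Cybb (ENSMUSG00000015340) is on chromosome X from 9435252 to 9487771, Cyba (ENSMUSG00000006519) on chromosome 8 from 122424776 to 122432930 and Ncf1 (ENSMUSG00000015950) on chromosome 5 from 134220053 to 134229625, all on the minus strand. Ncf4 (ENSMUSG00000071715, 78244801 to 78262580, plus strand) and Rac2 (ENSMUSG00000033220, 78559167 to 78572783, minus strand) are both on chromosome 15, 296586 bases apart with 10 protein-coding genes between them. Of the exon bases of Ncf1, 11.1% also belong to exons of Gtf2ird2 on the other strand, and since the library method does not mark strand, reads there could be counted for either gene or dropped. The other 4 share no exon base with another gene.

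The upstream sequences of the members with an entry in the RefSeq promoter table (GRCm38.p6) are shown because Cybb and Cyba passed the test as higher in cuprizone cells while Ncf1 did not. They give the 250 bases before the start in that table, 5′ to 3′ on the gene's own strand. For Cybb a GENCODE transcript begins at this same start, but another begins upstream, at 9487771, so the Cybb window lies inside the extent of the gene given above. For Cyba 0 of 3 GENCODE transcripts begin at the RefSeq start, 122432940. All begin downstream of it, the first at 122432930. Capitals mark GGGCGG, the core of a GC box, on either strand.
Cybb, chrX:9469325-9469574, minus strand: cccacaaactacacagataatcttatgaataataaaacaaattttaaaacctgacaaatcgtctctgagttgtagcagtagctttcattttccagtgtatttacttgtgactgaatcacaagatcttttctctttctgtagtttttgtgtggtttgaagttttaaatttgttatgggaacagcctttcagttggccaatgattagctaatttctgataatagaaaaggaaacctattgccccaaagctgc
Cyba, chr8:122432941-122433190, minus strand: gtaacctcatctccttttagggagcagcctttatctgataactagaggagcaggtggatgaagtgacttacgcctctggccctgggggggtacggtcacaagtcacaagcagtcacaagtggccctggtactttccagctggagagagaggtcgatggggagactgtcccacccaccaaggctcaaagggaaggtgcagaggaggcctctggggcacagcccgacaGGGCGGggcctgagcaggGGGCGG
Ncf1, chr5:134229626-134229875, minus strand: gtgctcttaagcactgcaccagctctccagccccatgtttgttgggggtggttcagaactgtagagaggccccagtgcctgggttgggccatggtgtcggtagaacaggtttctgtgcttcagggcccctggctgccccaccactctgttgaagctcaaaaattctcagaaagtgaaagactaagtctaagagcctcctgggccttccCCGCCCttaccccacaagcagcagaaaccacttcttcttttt
Cyba has 2 GGGCGG matches, beginning 24 and 6 bases before the RefSeq start, Ncf1 has 1, and Cybb has 0. Of 32851 promoters of this length, 32.7% hold the motif. GAGGAA, a purine-rich sequence bound by the myeloid factor PU.1, was searched on both strands as well. Shorter or variant sites of PU.1 were not searched. It is in none of these 3 windows and in 23.3% of the promoters. A match is a match of letters only.

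Of 1900 wells labelled as cells, 1644 passed the quality filters, and their counts were summed into 40 sums, 1 per mouse and group, of 5298853 to 19964472 counts. Levels below are scaled CPM, meaning CPM of a sum (its counts scaled to a fixed total) after TMM scaling across all 40 sums, as mean ± SD with n = 4 mice. Adjusted p-values are from edgeR's quasi-likelihood test with Benjamini-Hochberg adjustment over all genes tested. All 12 microglia markers were read in every group. In the remyelination group 67.9% of wells passed the filters, against 81.1% to 95.3% elsewhere, and its median of 1517 detected genes per cell was the lowest of the 10 groups.

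Cybb was close to absent outside the cuprizone groups and the most changed of the 5 genes inside them. In untreated corpus callosum its levels were 0, 0.442, 2.08 and 0 scaled CPM in the 4 mice. In demyelination they were 440, 177, 354 and 477, and in remyelination 1014, 1281, 1868 and 1004. Every cuprizone mouse lay above every other mouse of the study, and the 2 cuprizone groups did not overlap each other. The mean was 0.63 ± 0.988 in corpus callosum, 362 ± 134 in demyelination and 1292 ± 405 in remyelination.

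Of the 5 members, 2 (Cybb and Cyba) were called higher in demyelination than in corpus callosum and none lower, where 5.16% of 14057 genes were called (3.08% higher and 2.08% lower). Cybb rose by 9.11 ± 0.98 (SE, derived from the F statistic of the test) on the log2 scale in demyelination (adjusted p = 2.09e-05). The same 2 genes were called higher in remyelination, where 3.12% of genes were called (2.51% higher and 0.605% lower), and the log2 difference of Cybb there was 10.97 ± 1.04 (adjusted p = 9.36e-06). The size of both fitted differences depends on the 27 Cybb reads found in the whole corpus callosum group. Between the cuprizone groups, remyelination was 3.62-fold above demyelination (log2 difference 1.85 ± 0.69), which did not pass the test (adjusted p = 0.29).

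**Figure D1:**
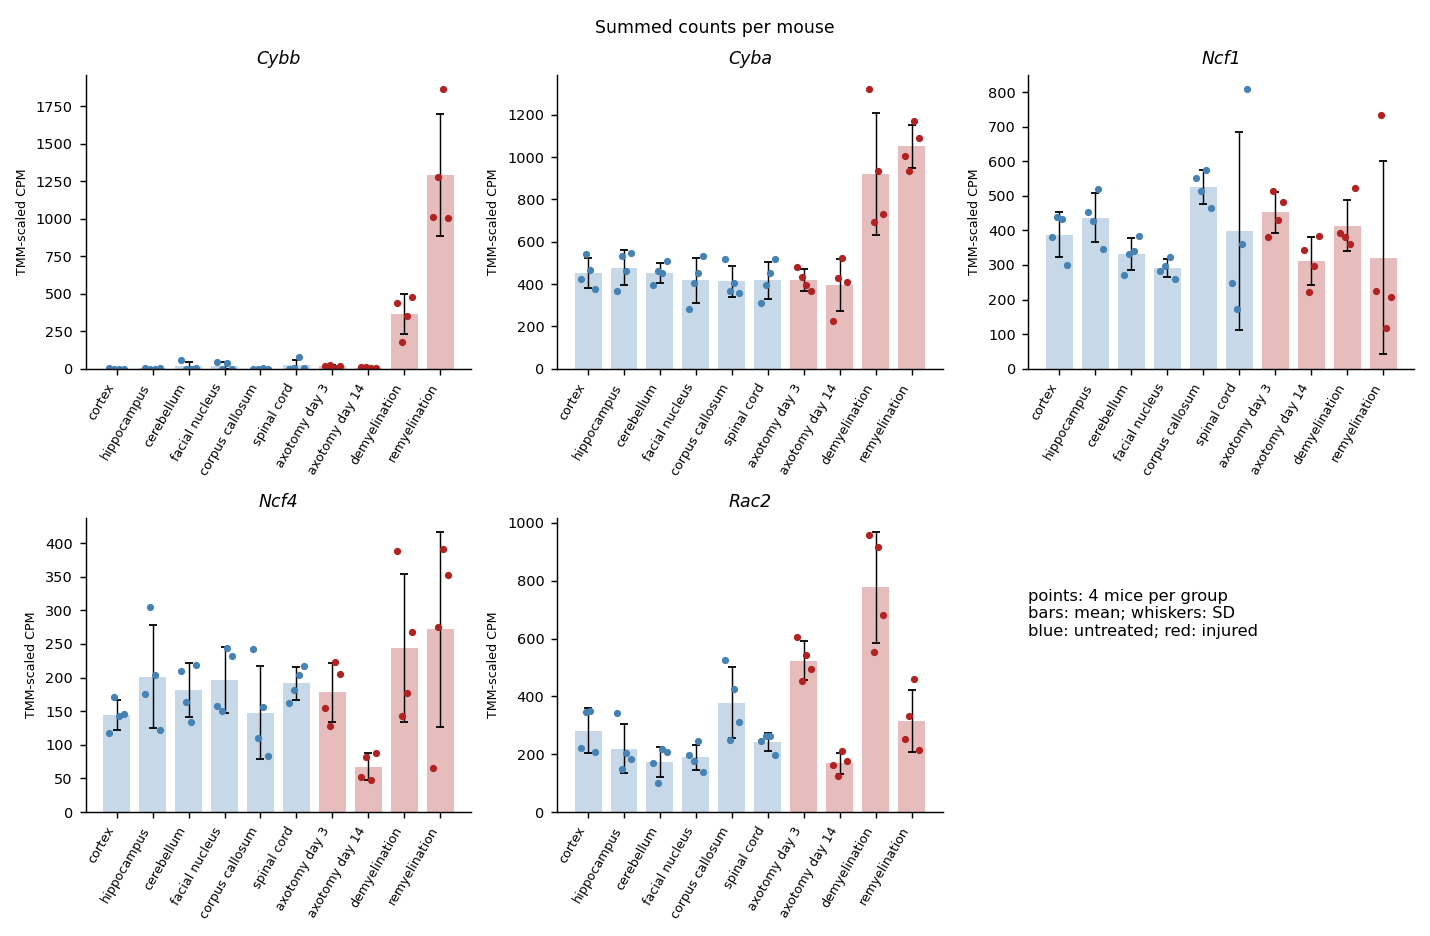
Levels of the 5 genes in each group (vertical axis, TMM-scaled CPM, linear from 0; points are 4 mice, bars the mean, whiskers the SD; untreated blue, injured red). Cybb and Cyba are high in both cuprizone groups, Rac2 at axotomy day 3 and in demyelination, and Ncf4 is lowest at axotomy day 14.

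The few Cybb reads elsewhere came from few cells. Of 1015 kept cells of the 6 untreated regions, 26 had any Cybb read (2.56%), and 13 of these were spinal cord cells. In cerebellum 1 cell held 89.97% of the group's 728 reads, and the level of 1 cerebellum mouse, 57.8 scaled CPM, stood against 0 to 2.43 in the other 3. Facial nucleus had 47.7, 0, 36.2 and 0, and spinal cord 0.102, 5.53, 78.3 and 2.87. These regions overlapped one another and the axotomy groups, at 15.7 ± 7.9 on day 3 and 7.92 ± 3.18 on day 14.

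Cyba, unlike Cybb, was read in most cells of every group, and it rose in both cuprizone groups. Mean levels in the 8 other groups were between 396 ± 124 (axotomy day 14) and 477 ± 82.7 (hippocampus), and neighbours in that order overlapped. Corpus callosum mice had 519, 367.5, 406 and 360 scaled CPM, demyelination mice 1324, 695, 935 and 733, and remyelination mice 1007, 934, 1169 and 1091. All 8 cuprizone mice were above all 4 corpus callosum mice, and the 2 cuprizone groups overlapped. The log2 difference was 1.13 ± 0.23 in demyelination (adjusted p = 0.00957) and 1.34 ± 0.23 in remyelination (adjusted p = 0.003).

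Both members of the membrane pair were measured on the same cells, so their levels can be set side by side per kilobase of exon. In corpus callosum Cybb stood at 0.108 scaled CPM per kb and Cyba at 398. In demyelination they were 62.4 and 887, and in remyelination 222 and 1011. On this scale the Cybb level was 0.0273% of the Cyba level in corpus callosum, 7.03% in demyelination and 22% in remyelination. In the other 7 groups it was between 0.0311% and 0.927%.

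Some genes of other cell types moved with these groups, as the summed levels of their marker lists and the fits show. The 8 monocyte markers summed to a median of 1112 scaled CPM in demyelination (564 to 2119), 114 in remyelination (0.845 to 322) and 72.4 in corpus callosum (14.3 to 170). Of the 4 measured in the cuprizone fit, Fn1, which encodes fibronectin, was the 1 called (log2 difference 7.77 ± 1.32, adjusted p = 0.00237 in demyelination). The median log2 difference of these 4 was -1.64 in demyelination and -1.59 in remyelination. Both lay below the medians over all genes, -0.33 and -0.31, so the raised sum does not describe the list as a whole. Ly6c2 and Chil3 were at 0 in demyelination and Ly6c2 also in remyelination. The 8 border macrophage markers summed to 46.6 in demyelination (19.5 to 121), 271 in remyelination (186 to 392.1) and 7.76 in corpus callosum (4.51 to 15.2). Ms4a7 was the 1 called, in remyelination (log2 difference 8.94 ± 1.82, adjusted p = 0.00972), and Lyve1 was at 0 in both cuprizone groups. The median log2 difference of the 5 border macrophage markers measured in the fit was 4.36 in demyelination and 3.36 in remyelination. Both lay above the medians over all genes. The 10 neutrophil markers summed to 508 in demyelination (432 to 598), 515 in remyelination (424 to 697) and 603 in corpus callosum (563 to 826), with Ly6g, Elane, Retnlg and Mmp9 at 0 in both cuprizone groups. Of the 12 microglia markers, 7 fell in demyelination, among them Tmem119 and P2ry12, and 1 (Aif1) rose. In remyelination 5 fell and Aif1 rose.

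Cells with a read of Fn1 or Ms4a7 made up 67.1% of demyelination cells, 45.0% of remyelination cells and 8.09% of corpus callosum cells. With them left out, an alternative added after the data had been seen, 53 demyelination and 71 remyelination cells remained and neither gene was called. Fewer genes were called over all as well, 1.17% of 12043 (141 genes) in demyelination and 0.872% (105 genes) in remyelination, against 725 and 438 genes with all cells. Cybb then had a log2 difference of 9.43 in demyelination (adjusted p = 0.0806) and 10.51 in remyelination (adjusted p = 0.0855). For Cyba the values were 1.24 (adjusted p = 0.054) and 1.25 (adjusted p = 0.0664). The part of these cells in the calls was not tested further, but Cybb could be compared between kinds of cell of the same mouse, with each cell thinned to 20000 reads. In demyelination its mean was 267 ± 152 CPM of thinned reads in cells with an Fn1 read and 353 ± 310 in those without, and it was higher with Fn1 in 1 of 4 mice. In that mouse the cells without Fn1 had no Cybb read after thinning. In remyelination it was 1203 ± 675 in the 34 cells with an Fn1 read and 640 ± 177 in the others, and higher with Fn1 in 3 of 4 mice. For Ms4a7 in remyelination it was 747 ± 580 in the 27 cells with a read and 818 ± 361 in the others, and higher with Ms4a7 in 1 of 4 mice. In demyelination 2 mice had 3 or more of the 8 cells with an Ms4a7 read, and there the level was 550 ± 70.7 with the read and 247 ± 220 without, higher in both mice. The direction thus differed between the markers and groups, and no difference was tested.

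**Figure D2:**
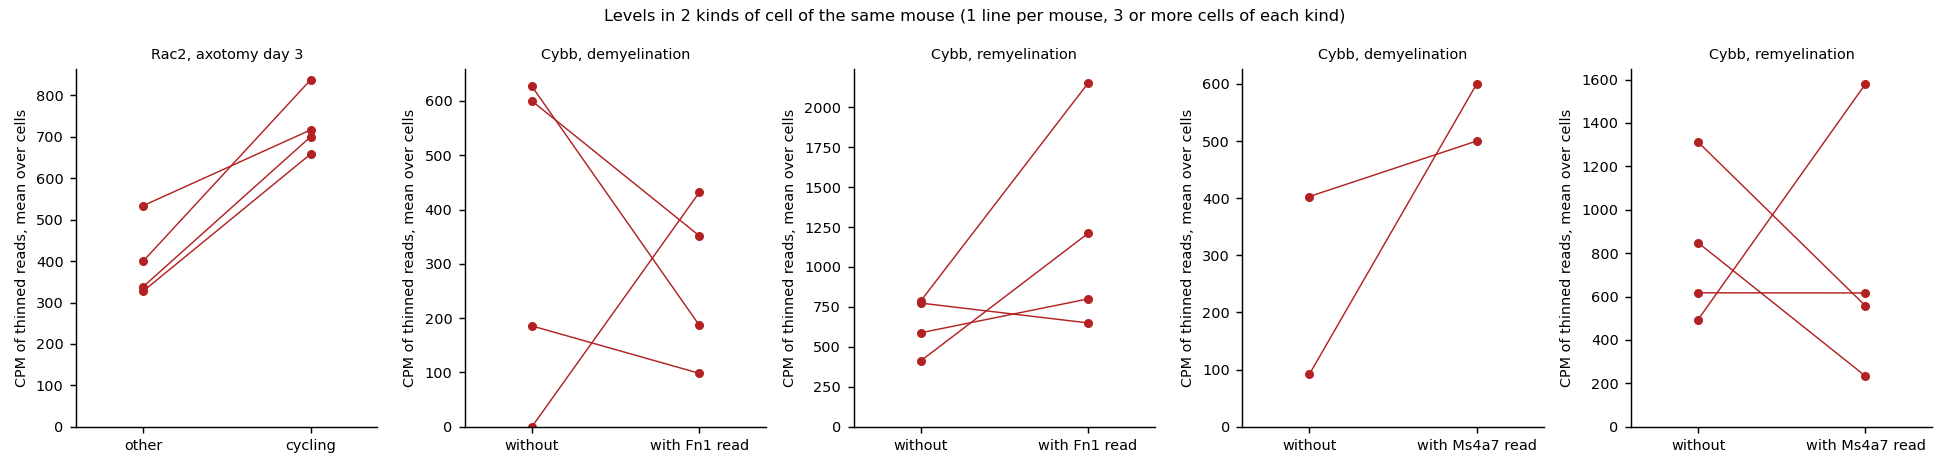
Mean CPM of thinned reads in 2 kinds of cell of the same mouse (each line 1 mouse, linear axis from 0, cells thinned to 20000 reads). Rac2 at axotomy day 3 was higher in cycling cells in 4 of 4 mice, while Cybb was higher in cells with an Fn1 read in 1 of 4 mice (demyelination) and 3 of 4 (remyelination), and in cells with an Ms4a7 read in 2 of 2 (demyelination) and 1 of 4 (remyelination).

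Neither cytosolic member was called in the cuprizone groups. Ncf1, which carries the phosphorylation sites that trigger assembly, had its highest mean in corpus callosum, with 551, 514, 575 and 463 scaled CPM. Demyelination mice had 393, 379, 360 and 522. Remyelination mice had 226, 733, 118 and 207, so 1 mouse was above all corpus callosum mice and the other 3 below them. The log2 differences from corpus callosum were -0.37 ± 0.42 (adjusted p = 0.712) and -0.71 ± 0.42 (adjusted p = 0.423). Without remyelination replicate 2, the mouse at 733, the remyelination difference was -1.49 and passed the test (adjusted p = 0.0132).

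Spinal cord was spread as widely for Ncf1, with 249, 172, 361 and 810 scaled CPM. After axotomy its levels were 381, 513, 431 and 482 on day 3 against 283, 298, 322 and 260 in untreated facial nucleus, with no overlap. That is 1.56-fold (log2 difference 0.64 ± 0.24), which did not pass the test (adjusted p = 0.455). On day 14 the levels were 343, 223, 296 and 384, within reach of the untreated mice.

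Ncf4, whose product binds a membrane phosphoinositide, was lowest 14 days after axotomy. Its levels there were 52.6, 81.2, 48.3 and 87.4 scaled CPM, against 155, 129, 224 and 205 on day 3 and 157, 151, 245 and 232 in untreated facial nucleus. All 4 mice of day 14 were below all mice of both other groups. The log2 differences were -1.54 ± 0.35 from facial nucleus (adjusted p = 0.629) and -1.41 ± 0.35 from day 3 (adjusted p = 0.239). Neither passed edgeR's test, while DESeq2 called both (adjusted p = 0.00176 and 0.00816). Against corpus callosum, Ncf4 differed by 0.70 ± 0.49 in demyelination and 0.86 ± 0.49 in remyelination (adjusted p = 0.496 and 0.395), and the mice overlapped.

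Rac2, the GTPase that switches the assembled complex on and also steers the actin skeleton of blood cells, was highest in demyelination and at axotomy day 3. Day 3 mice had 607, 454, 542 and 494 scaled CPM, untreated facial nucleus 196, 176, 244 and 140, and day 14 mice 162, 124, 211 and 175. The day 3 mice were above all mice of both other groups, and day 14 and facial nucleus overlapped. The log2 difference was 1.48 ± 0.27 from facial nucleus to day 3 and -1.65 ± 0.27 from day 3 to day 14. These are the values Rac2 was chosen by. Day 14 differed from facial nucleus by -0.17 ± 0.27 (adjusted p = 1).

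Among the other members, none of the 4 tested at day 3 against facial nucleus was called by edgeR, where 0.145% of 19319 genes were called. At an unadjusted p under 0.05 there was 1, Ncf1, and DESeq2 called 0 of them and 1.78% of genes. All mice of day 3 lay above all facial nucleus mice for Ncf1, as they did for 3.1% of genes. At day 14 against facial nucleus edgeR called 0 of 5 members and 0% of genes. Ncf4 was the 1 member with an unadjusted p under 0.05 and the 1 DESeq2 called, where DESeq2 called 0.937% of genes. It lay wholly below facial nucleus, as 1.62% of genes did. Between day 14 and day 3 edgeR called 0 of the 4 tested and 0.0259% of genes. Ncf1 and Ncf4 had an unadjusted p under 0.05, and DESeq2 called Ncf4 and 1.23% of genes. Ncf4 lay wholly below day 3, as 2.32% of genes did.

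Dividing cells and mitochondrial reads also moved with day 3. Cells with reads of at least 3 of 8 cell cycle genes numbered 27 of 168 on day 3, 2 of 161 in facial nucleus and 3 of 171 on day 14. The median mitochondrial share of reads was 3.09%, 1.06% and 1.54% in the same order. In the 4 mice of day 3, Rac2 was at 717, 700, 838 and 658 CPM of thinned reads in cycling cells and at 534, 338, 400 and 327 in the others. The cycling cells were higher in every mouse. Without cycling cells in any group, an alternative added after seeing the data, the Rac2 difference was 1.10 on the log2 scale for day 3 against facial nucleus and -1.28 for day 14 against day 3. The part of the mitochondrial share was not tested.

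Among corpus callosum and the cuprizone groups, Rac2 had its highest levels in demyelination. Corpus callosum mice had 527, 249, 426 and 312 scaled CPM, demyelination mice 957, 554.7, 917 and 681, and remyelination mice 252, 334, 459 and 215. All demyelination mice were above all mice of the other 2 groups, which overlapped each other. The difference from corpus callosum was 2.02-fold (log2 1.01 ± 0.31) and missed the threshold (adjusted p = 0.0618). Remyelination against demyelination gave -1.28 ± 0.31 (adjusted p = 0.29), and remyelination against corpus callosum -0.27 ± 0.30 (adjusted p = 0.728). Cybb, Cyba and Rac2 lay wholly above corpus callosum in demyelination, as 8.88% of genes did, and Cybb and Cyba in remyelination, as 5.53% did.

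Between remyelination and demyelination edgeR called 0 of the 5 members and 0.0427% of genes. Cybb and Rac2 had an unadjusted p under 0.05, and DESeq2 called Rac2 and 4.24% of genes. Cybb and Rac2 did not overlap between these groups, and in opposite directions. Cybb was higher in all remyelination mice, as were 1.47% of genes, and Rac2 lower, as were 2.76%.

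Rac1, the broadly expressed relative of Rac2, was higher in both cuprizone groups. Its level was 280 ± 32.9 scaled CPM in corpus callosum, 763 ± 52.6 in demyelination and 657 ± 66.1 in remyelination. Both cuprizone groups passed the test (log2 1.42 ± 0.21, adjusted p = 0.000599, and 1.23 ± 0.21, adjusted p = 0.00241). At day 3 after axotomy it was 324 ± 67.3 against 241 ± 44.4 in facial nucleus (adjusted p = 0.853). Rac1 shares 51.4% of its exon bases with Daglb on the other strand, so part of its counts is uncertain.

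**Figure D3:**
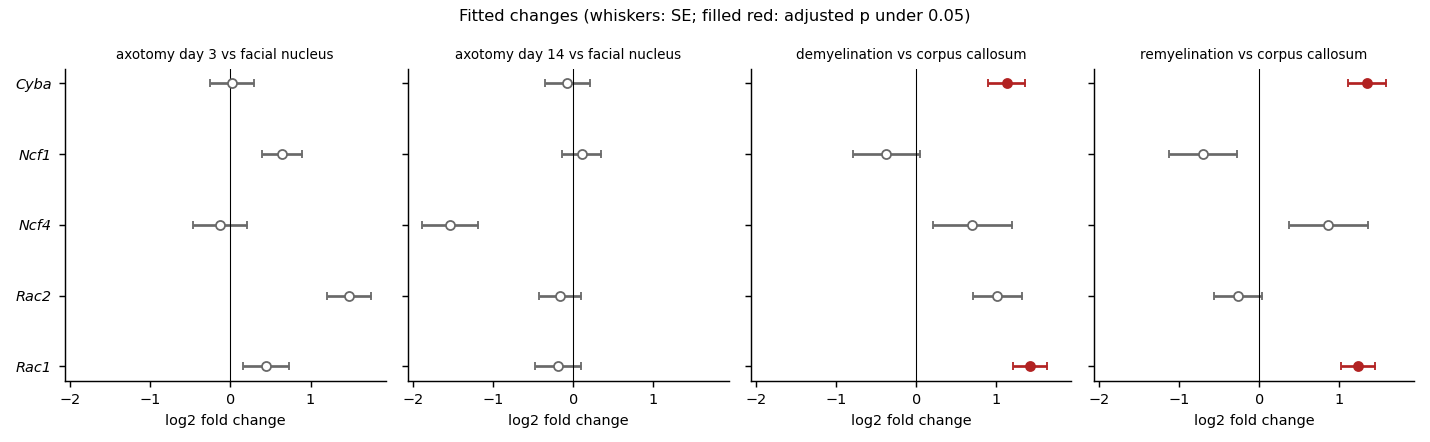
Fitted log2 fold changes (horizontal axis, whiskers SE) of Cyba, Ncf1, Ncf4, Rac2 and Rac1 against the untreated region, n = 4 mice a group; filled red points passed an adjusted p of 0.05. Cyba and Rac1 passed in both cuprizone groups; Rac2 at day 3 (1.48) carries no test, and Cybb (9.11 and 10.97 in the cuprizone groups) is off this scale and not drawn.

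Whether the 2 injuries differ was tested directly, as the demyelination difference minus the day 3 difference. None of the 4 members tested was called by edgeR, where 1.03% of 19148 genes were called. Cybb, Cyba and Ncf1 had an unadjusted p under 0.05, and DESeq2 called Cybb and Ncf1, where it called 10.9% of genes. The difference between the effects was 9.60 ± 2.35 on the log2 scale for Cybb (adjusted p = 0.0602), 1.22 ± 0.36 for Cyba (adjusted p = 0.0735), -0.91 ± 0.31 for Ncf1 (adjusted p = 0.115) and 0.94 ± 0.53 for Ncf4 (adjusted p = 0.31). For Rac2 it was -0.37 ± 0.37, given without a test. The median of all genes in this comparison was -0.94.

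No member was called among the untreated regions. Tested jointly across the 6 regions, edgeR called 0 of the 5 members and 0.1% of 22907 genes. Rac2 alone had an unadjusted p under 0.05 (p = 0.00701 in edgeR's quasi-likelihood test, adjusted p = 0.402), and DESeq2 called 0 members and 0.873% of genes. Its means ran from 173 ± 51.9 scaled CPM in cerebellum to 378 ± 123 in corpus callosum, and neighbours in the order of regions overlapped. At the ends of that order, cerebellum mice had 102 to 217 and corpus callosum mice 249 to 527. Ncf1 ran from 291 ± 25.8 (facial nucleus, 260 to 322) to 526 ± 48.5 (corpus callosum, 463 to 575). The end regions of Rac2 and Ncf1 were on different plates and were not compared directly. Ncf4 ran from 144 ± 22.1 (cortex) to 202 ± 77.0 (hippocampus).

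Pairs of regions on the same plate were also compared. Cortex against hippocampus called 0 members and 0% of genes. Cerebellum against facial nucleus called 0 members and 0.00437% of genes. In both pairs 0 members had an unadjusted p under 0.05. Spinal cord against corpus callosum called 0 members and 0% of genes, with Rac2 the 1 member at an unadjusted p under 0.05. DESeq2 called 0 members in all 3 pairs, and 3.35%, 3.44% and 1.62% of genes in the same order.

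The share of cells with a read was counted for each member. After thinning each cell to 20000 reads, Cyba was read in 81.8% to 92.1% of cells of every group. For Cybb the share in the 4 mice was 25%, 6.52%, 14.6% and 34.2% in demyelination and 31.0%, 42.4%, 63.9% and 45.2% in remyelination. In corpus callosum it was 0%, 0%, 2.17% and 0%. Other groups overlapped demyelination on this measure, with 17.1% in spinal cord replicate 3 and 8.51% in axotomy day 14 replicate 2. Unthinned, the mean share was 36.2% ± 11.3 in demyelination, 70.1% ± 9.24 in remyelination and 1.14% ± 1.32 in corpus callosum. Median gene counts per kept cell were 471755, 383610 and 201705 in the same order, so unthinned shares are not at equal depth. The 10% of cells with the most thinned Cybb reads held 84.8% of them in demyelination and 54.9% in remyelination.

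The share of cells with an Ncf1 read was lowest in remyelination. The mean share of cells was 63.7% ± 9.71 in corpus callosum, 47.1% ± 5.09 in demyelination and 30.6% ± 7.78 in remyelination after thinning (79.7%, 58.4% and 43.7% unthinned). Remyelination replicate 2, the mouse with the high level, had a read in 36.4% of its cells, close to the 35.5% of another mouse of the group. In remyelination 1 cell held 15.6% of all Ncf1 reads of the group. Rac2 was read in 55.6% ± 10.2 of day 3 cells, 35.4% ± 3.83 of facial nucleus cells and 33.8% ± 7.66 of day 14 cells, which again is a description. In corpus callosum, demyelination and remyelination the Rac2 shares were 50.5% ± 7.75, 56.7% ± 13.8 and 34.3% ± 8.46.

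Shares were compared in 43 pairs of gene and comparison with a two-sided exact permutation test over mice. With 4 mice against 4 the smallest possible p is 0.0286, and 6 pairs reached it. They were Cybb in demyelination and in remyelination against corpus callosum, Ncf1 in remyelination against corpus callosum and against demyelination, and Rac2 in cerebellum against facial nucleus and in spinal cord against corpus callosum. Adjusted over the 43 pairs the smallest p was 0.205 in this exact test, and no share passed. For any share to pass, at least 25 of the 43 pairs would have had to reach the smallest p, so the test says little about which shares differ. The 20 wells labelled negative had a median of 524.5 gene counts. Cybb was read in 0 of them (exact 95% binomial interval up to 16.8%, counting error only), Cyba and Rac2 in 4 each, Ncf1 in 2 and Ncf4 in 1.

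**Figure D4:**
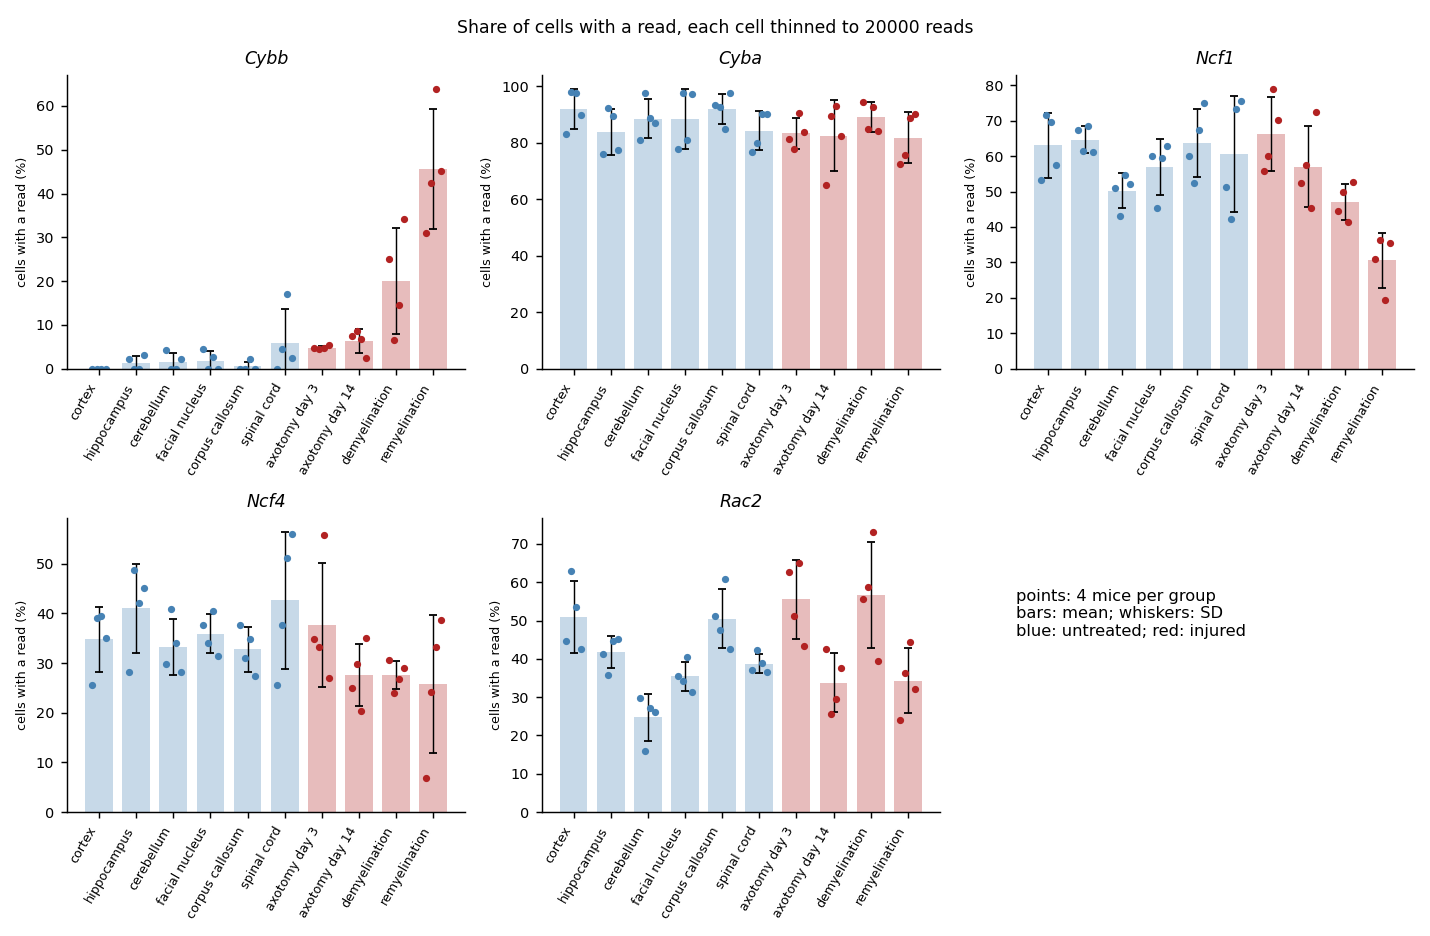
Share of cells with at least 1 read (vertical axis, percent, linear from 0) after each cell was thinned to 20000 reads, by group (points are 4 mice, bars the mean, whiskers the SD; untreated blue, injured red). Cybb is read in 20.1% of demyelination and 45.6% of remyelination cells on average, while the Ncf1 share is lowest in remyelination at 30.6%.

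Cybb and its partners could be compared within the same cells of the cuprizone groups, after thinning. Of remyelination cells with a Cybb read, 91.7% had a Cyba read, against 73.9% of the others. For Ncf1 the shares were 26.7% and 33.3%, for Ncf4 31.7% and 21.7%, and for Rac2 31.7% and 37.7%. Reads of all 5 members were found together in 1.55% of the 129 cells of remyelination, 0% of demyelination cells and 1.79% of day 3 cells. These are counts over cells that share mice, depth and plate, pooled over the mice of a group, so differences between mice enter them. They were not tested.

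Over all genes the median log2 difference from corpus callosum was -0.33 in demyelination and -0.31 in remyelination. Among 25 regulators and relatives of Rac, Arhgdia, a chaperone that holds small GTPases in the cytosol, rose in both groups (1.42 ± 0.21, adjusted p = 0.00061, and 1.25 ± 0.21, adjusted p = 0.00217). Rhoa rose in demyelination (1.28 ± 0.30, adjusted p = 0.0203) and Cdc42 in remyelination (0.94 ± 0.24, adjusted p = 0.0442). Elmo1, part of an exchange factor for Rac, fell in both (-1.38 ± 0.32, adjusted p = 0.021, and -1.24 ± 0.32, adjusted p = 0.0448). No other gene of this list passed in either group. Like the lists below, it was written with earlier results of these data known. The list's medians were 0.15 and -0.03.

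A further list held enzymes that remove superoxide and peroxide. Of its 13 genes, 11 were measured in the cuprizone fit, of which 4 rose in demyelination and 2 in remyelination, and none fell. Over all genes 3.08% were called higher in demyelination and 2.51% in remyelination. The list was written with earlier results of these data known, so these counts are a description. Prdx1, a peroxiredoxin that reduces hydrogen peroxide, was at 93.9 ± 30.5 scaled CPM in corpus callosum, 666 ± 266 in demyelination and 900 ± 389 in remyelination (log2 2.80 ± 0.38, adjusted p = 0.000221, and 3.26 ± 0.38, adjusted p = 6.94e-05). It was also the 1 gene of the list called in the difference between injuries (2.03 ± 0.47, adjusted p = 0.0372). The list's median in that comparison was 1.02. Prdx5 rose in both groups (1.503 ± 0.34 and 1.34 ± 0.33). Sod1, which converts superoxide to hydrogen peroxide, and the thioredoxin gene Txn1 rose in demyelination (1.89 ± 0.41 and 2.37 ± 0.45). The list's median was 1.72 in demyelination and 1.34 in remyelination. Among 11 myeloid transcription factors, Sall1, a microglia identity factor, fell in demyelination (-1.75 ± 0.40, adjusted p = 0.0199), and it was the 1 of 10 measured that passed there.

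Genes whose levels ran most like each member were found by Spearman correlation over the 40 sums among 3805 genes with a mean of at least 50 scaled CPM. The sums share plates and groups, so the coefficients are descriptions. Cybb ran most like Gpx3 (0.81), Clec7a (0.76), Sulf2 (0.73), Sem1 (0.73) and Fth1 (0.72). Cyba ran most like Morf4l2 (0.79), Selenop (0.77), Snx3 (0.77), Glmp (0.76) and Cd9 (0.73). For Rac2 the first were Eef2 (0.73) and Actb (0.69). Ncf1 and Ncf4 had no close match, with Rhog (0.54) and Nip7 (0.62) first. Among the members themselves the highest coefficient was 0.41, between Cyba and Ncf4, and Cybb with Cyba gave 0.33.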

How the data were processed

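Single microglia were sequenced with Smart-seq2. The authors deposited raw counts of reads, 1 column for each well; alignment used STAR 2.5.2b and counting used featureCounts 1.5.1 on GRCm38, per the submitters' processing notes. The sources used here do not give the annotation release, strand setting or sorting gates, and no molecular identifiers were used.

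Wells were kept with at least 20000 gene counts, at least 500 genes, under 25% mitochondrial and under 50% spike-in reads (0 of 20 negative wells passed). Counts were summed per mouse and group and tested with edgeR 4.0.16 (TMM, filterByExpr with minimum counts of 10 and 15, robust quasi-likelihood F test), with an adjusted p under 0.05 called. Fits held the 6 untreated regions, the axotomy groups with facial nucleus, the cuprizone groups with corpus callosum, or 4 groups for the difference between injuries. The SE of an edgeR log2 difference is its absolute value divided by the square root of F, not an error taken from the fit itself. The fits were tested on simulated data. Alternatives included DESeq2, upper-quartile scaling, filters, thinning and leaving out mice. Gene lengths are the exon lengths given in the deposited count table. Gene names, positions and transcript starts are from GENCODE vM21.

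The members and lists were chosen with earlier results of these data known. Named beyond the members are Rac1, up to 4 called genes per list and comparison with the smallest adjusted p, and the 5 genes most like each member. Some genes that this rule covers are not reported here.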

Additional observations from a re-analysis of the deposited data

Results flagged for a closer look

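Of 100 sets of 4 mice tested for 1 mouse far from the others (5 genes, 10 groups, levels and thinned shares of cells), 4 stood out. All were for Cybb in untreated groups. The rule marks about 1 set in 20 by chance for normally spread values, which these values near 0 are not. With 0 in 3 mice, any value above 0 in the other mouse is marked. The thinned Cybb shares of cortex, 0% in every mouse, could not be marked. The Cybb level of cortex replicate 1 was 3.15 scaled CPM, with 0 in the other 3 mice, all from 1 cell. Cerebellum replicate 1 was at 57.8, with the others between 0 and 2.43. Spinal cord replicate 3 was at 78.3, with the others between 0.102 and 5.53. The share of cells with a Cybb read after thinning was 2.17% in corpus callosum replicate 3 and 0% in the other 3 mice.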

How the results depend on the processing

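In all alternatives but 1, Cybb and Cyba were the members called in demyelination and in remyelination against corpus callosum, with Rac2 added in demyelination when all 10 groups shared a fit (adjusted p = 0.0349) and Ncf1 in remyelination without replicate 2. Leaving out 1 mouse kept the adjusted p at or under 0.000221 for Cybb and 0.0468 for Cyba. In the exception, without cells with a read of Fn1 or Ms4a7, the count was 0 in both comparisons over fewer cells, and 141 and 105 genes were called in all. DESeq2 called 1 member at day 14 against facial nucleus, 1 at day 14 against day 3, 1 in remyelination against demyelination and 2 in the difference between injuries, out of 181, 237, 596 and 2096 genes it called in all (edgeR: 0, 5, 6 and 197). That last count was 0 in the analysis reported, 1 with no low-count filter, 1 with no cell filter (Cybb in both), 2 with thinned cells (Cybb and Cyba), and 0 to 1 when a mouse was left out, with Cybb called without facial nucleus replicate 2 or 4. Remyelination against demyelination gave 1 with no low-count filter (Cybb, adjusted p = 0.00156) and 1 with all groups in a fit (Rac2, adjusted p = 0.034).

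Differences that changed sign were none of them called. Cyba at day 3 against facial nucleus (0.02) became -0.0077 with upper-quartile scaling, -0.028 with DESeq2, -0.00915 with no low-count filter, -0.24 with thinned cells, -0.011 without cells with other markers and -0.11 without cycling cells. Cyba at day 14 against day 3 became 0.003234, 0.044 and 0.036 with DESeq2, thinning and no cycling cells. Upper-quartile scaling gave -0.0029 for Cyba in spinal cord against corpus callosum, and thinning -0.028 in cerebellum against facial nucleus. Ncf4 in remyelination against demyelination became -0.84 without cells with an Fn1 or Ms4a7 read. Leaving out a mouse gave ranges across 0 for Cyba of -0.18 to 0.13 (day 3), -0.23 to 0.11 (day 14), -0.21 to 0.13 (day 14 against day 3), -0.18 to 0.0050 (cortex against hippocampus), -0.041 to 0.26 (cerebellum against facial nucleus) and -0.076 to 0.17 (spinal cord against corpus callosum). For Cybb they were -0.85 to 0.36 (day 3) and -4.63 to 0.31 (cerebellum against facial nucleus). For Ncf1 at day 14 the range was -0.0090 to 0.22, for Ncf4 -0.22 to 0.0053 (cerebellum against facial nucleus) and -0.052 to 0.48 (remyelination against demyelination), and for Rac2 -0.26 to 0.059 (cerebellum against facial nucleus). The causes were not tested.

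Scaling moved the median of all genes in demyelination from -0.33 to -0.53 (upper quartile) and -0.59 (DESeq2). DESeq2 called 1945 genes there (651 higher, 1294 lower) against 725 (433 higher, 292 lower) with edgeR. Whether equal replicate numbers pair the mice is not stated. The mean correlation of deviations of same-numbered mice was 0.0026 in the axotomy fit, 0.00059 in the cuprizone fit and 0.044 among regions, against -0.00090, -0.00024 and -0.015 for other numbers, and 2 of 60 same-numbered pairs of regions were over 0.1 (highest 0.122). A replicate block raised the genes called among regions from 23 to 39 and lowered those called in demyelination to 447 and in the difference between injuries to 107. In fits that included the replicate block, 2 members were called in demyelination and 2 in remyelination, 0 in the other comparisons, and Cybb at day 3 turned to 0.55 (adjusted p = 0.999). The Cybb level in corpus callosum rests on 27 reads from 2 of 173 kept cells.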
